A study of Mus musculus with 10 samples.

Results

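Transcript levels of 38 genes that write, read or erase histone acetylation were examined in the whole brain of *Arid1b*+/- and wild-type mice at postnatal day 3. The genes were chosen by name from a list of symbols, matched to the rows of the table by Ensembl identifier. The list holds acetyltransferases, subunits of their complexes, BET-family readers, deacetylases other than class IIa, sirtuins and corepressors. It does not hold every gene of these classes, and further ones are given below from other lists. All 38 were found among the 18444 genes of the table, and all 38 passed the filter on low values.

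The animals were 10 male mice of the C57BL/6N strain, with 1 poly-A mRNA library per mouse. The 5 heterozygous mice (HT 1 to HT 5) carried a protein-truncating Cas9 edit of exon 5 in 1 *Arid1b* allele, and the 5 wild-type mice (WT 1 to WT 5) carried none. The mutation is germline and comes from a single edited line, bred from heterozygous males and wild-type females, so that every cell type of the brain was heterozygous. *Arid1b* encodes a DNA-binding subunit of the BAF chromatin remodeling complex, whose ATPase subunits carry a bromodomain, the fold that binds acetylated lysine. The comparison of the groups therefore asks whether the acetylation machinery is transcribed at another level when 1 copy of this subunit is lost.

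Histone acetyltransferases transfer an acetyl group from acetyl-CoA to lysines of the histone tails, which loosens the contact of the tail with DNA and creates a docking site. Bromodomain proteins of the BET family bind that site and recruit the transcription machinery. Deacetylases remove the group again, the zinc-dependent HDACs mostly as part of NCoR, SIN3, NuRD or CoREST corepressor complexes, and the sirtuins with NAD+ as a co-substrate. In the developing brain these enzymes act on neural progenitor division, neuronal maturation and activity-dependent transcription, and loss of 1 copy of CREBBP or EP300 causes Rubinstein-Taybi syndrome in humans.

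The value of a gene in a library is a normalised read count, the estimated reads divided by the size factor of the library, and totals ranged from 27.24 M to 29.03 M per library (M, 1000000 normalised counts). *Arid1b* itself read 2372, 2230, 2253, 1505 and 2142 in HT 1 to HT 5 and 3386, 3155, 3597, 3429 and 3108 in WT 1 to WT 5, so that the groups did not overlap and the mean of HT was 63.0% of that of WT (exact permutation test, two-sided, p = 0.00794, the smallest that 5 against 5 libraries allow). By limma its log2 fold change was -0.68, SE 0.11, with a Benjamini-Hochberg adjusted p of 0.390, and -0.57 without HT 4, with an adjusted p of 2.5e-04. One library, HT 4, stood apart. It held the lowest of all 10 values for 27.5% of the 17020 genes tested and the highest for 24.7%, against 6.02% to 12.6% and 6.46% to 11.9% in each of the other 9. Results are therefore given with and without HT 4. All genes of the cell type marker lists were in the table but the erythroid marker *Hemgn*. None was at 0 in every library, which the table could not hold, as its smallest mean was 3.44. The summed level of 12 dividing progenitor markers was 6034 to 10180 in HT and 7586 to 9748 in WT. Summed levels of neuron, astrocyte and radial glia, oligodendrocyte lineage, microglia, endothelial and mural, and erythroid markers overlapped between the groups as well. Within some lists the genes leaned 1 way. Fold changes were below 0 for 11 of 12 dividing progenitor, all 10 microglia and 8 of 10 endothelial and mural markers. Of all genes tested, 53.6% were below 0. Fold changes were above 0 for all 6 erythroid markers tested and 8 of 10 oligodendrocyte lineage markers. For neuron and for astrocyte and radial glia markers, 6 of 10 were above 0. Their medians were 0.029 and 0.021 in all libraries, and 0.0625 and -0.051 without HT 4. Summed neuron markers were 223000 in HT 4 and 245000 in HT 1. In HT 2, HT 3 and HT 5 they were 251400, 254300 and 257500, above the highest WT library (246700). The median was -0.23 for microglia (-0.34 without HT 4) and 0.48 for erythroid markers (0.42). None of these genes had an adjusted p under 0.05, with or without HT 4. At an unadjusted limma p under 0.05, 2 oligodendrocyte lineage markers were higher in HT, against 1.47% of all genes. Only 1 other, a dividing progenitor marker, was lower, against 1.93%. Without HT 4, 2 neuron, 1 astrocyte and radial glia, 1 oligodendrocyte lineage and 1 endothelial and mural marker were higher, against 4.69%. Lower were 1 dividing progenitor, 2 astrocyte and radial glia, 2 microglia and 2 endothelial and mural markers, against 3.71%. In whole-brain RNA, fewer cells of a type and less RNA per cell cannot be told apart.

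The acetylation genes were well expressed. Means are given ± SD over the 5 mice of a group. Mean levels in WT ran from 249 normalised counts for *Hdac8* to 8028 for *Brd2*, with a median of 1260.0 against 542 for all genes tested, and 30 of 38 lay above the median gene. The spread between the 5 WT mice, as the coefficient of variation, had a median of 6.16% over the 38 genes, from 1.43% for *Brd2* to 17.1% for *Ing3*. The 10282 genes with a WT mean in the same range had a median of 6.08%, so that these genes varied between wild-type mice about as much as others of their level.

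Levels of different genes were compared per kilobase of the longest annotated coding transcript, as normalised counts per kilobase in WT. The BET reader *Brd2* (1724 ± 24.6, SD over 5 mice) and the class I deacetylases *Hdac2* (1594 ± 86.1) and *Hdac3* (1559 ± 34.6) stood at the top. The ranges of *Hdac2* (1495 to 1709) and *Hdac3* (1525 to 1598) overlapped, as did those of *Hdac2* and *Brd2* (1695 to 1751). Below a gap came *Brd3* (837 ± 47.8), *Ing4* (836 ± 39.2), the brain-enriched class IV deacetylase *Hdac11* (811 ± 19.6) and the SAGA acetyltransferase *Kat2a* (809 ± 38.2), whose ranges overlapped one another. The lowest were the ING family reader *Ing5* (83.4 ± 4.85), *Kat2b* (118 ± 14.6), *Ing3* (123 ± 21.1), *Sirt1* (128 ± 4.18) and *Hdac8* (128 ± 13.5). Only *Ing5* among these lay apart from the rest, with a range of 79.5 to 90.7.

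**Figure D1:**
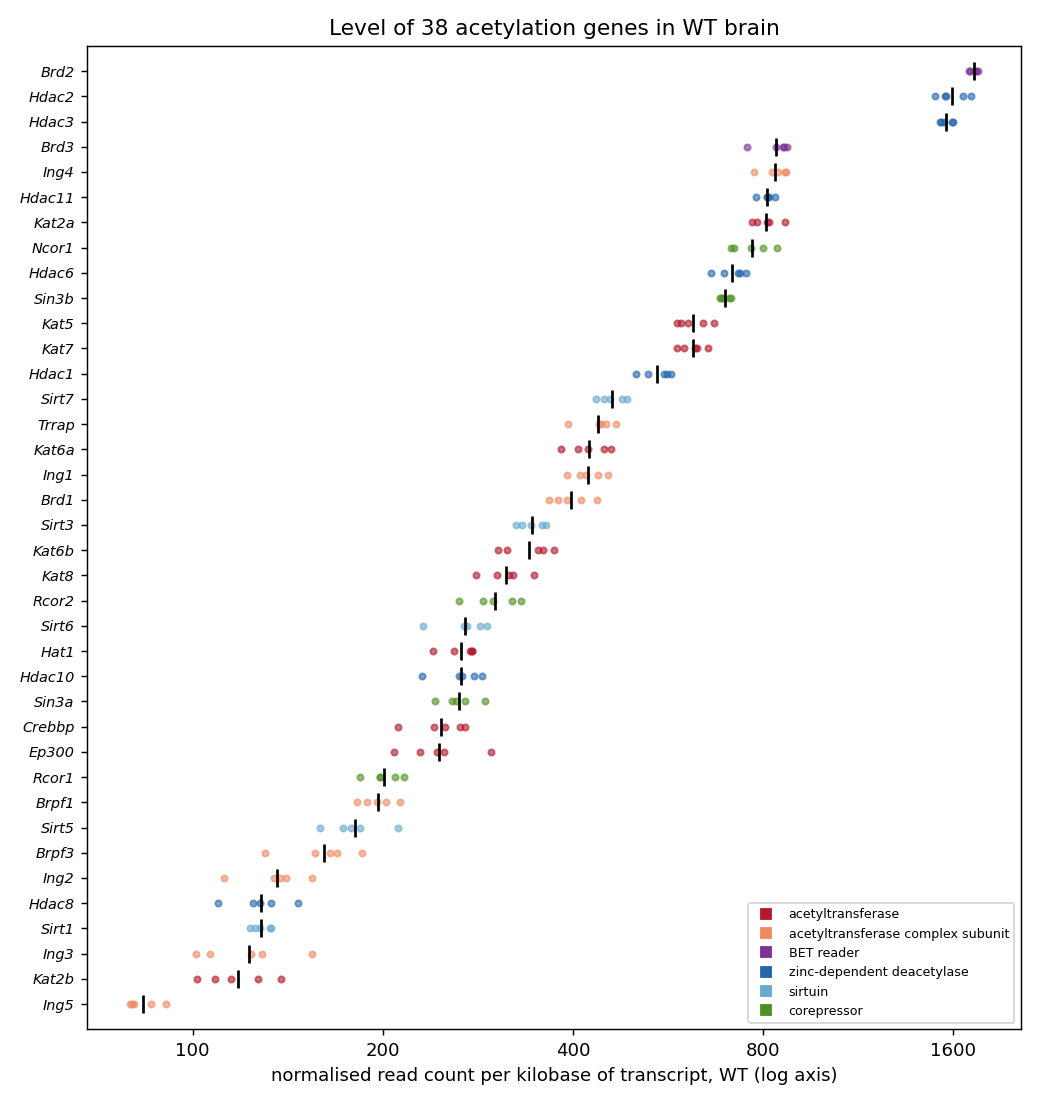
Level of each of the 38 genes in WT, as normalised read count per kilobase of transcript on a log axis. Points are the 5 WT mice, the vertical tick is their mean, and colours give the role of the gene. *Brd2*, *Hdac2* and *Hdac3* lie above 1000 in every WT mouse and all other genes below it.

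Several of the genes are close paralogs, and in 6 of 8 pairs the per-kilobase ranges of the partners did not overlap between the WT mice. *Kat2a* exceeded its paralog *Kat2b*, the second catalytic subunit of the SAGA-type complexes, by a per-kilobase ratio of 6.96 ± 0.961 in WT and 7.94 ± 0.737 in HT (mean ± SD, n = 5). *Brd2* stood above *Brd3* by 2.07 ± 0.146 in WT and 2.12 ± 0.139 in HT. For the class I deacetylases *Hdac1* and *Hdac2*, the ratio of the first to the second was 0.342 ± 0.0253 in WT and 0.336 ± 0.0229 in HT. The same held for *Sin3a* against *Sin3b*, the scaffolds of the SIN3 complex (0.380 ± 0.0265 and 0.374 ± 0.0437), for the CoREST scaffolds *Rcor1* and *Rcor2* (0.673 ± 0.0815 and 0.701 ± 0.163), and for the MYST enzymes *Kat6a* and *Kat6b* (1.25 ± 0.0452 and 1.20 ± 0.0928). Only the ranges of *Crebbp* and *Ep300* (1.01 ± 0.0811 and 1.02 ± 0.148) and of *Brpf1* and *Brpf3* (1.24 ± 0.245 and 1.38 ± 0.183) overlapped in WT. In none of the 8 pairs did the ratios of the HT mice separate from those of the WT mice, with or without HT 4.

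No acetylation gene passed the test between HT and WT. With limma on log2(value + 1) over 17020 genes, 0 of 38 had a Benjamini-Hochberg adjusted p under 0.05, where the share of all genes called was 0%. The smallest adjusted p among the 38 was 1.00 to 3 digits. At an unadjusted limma p under 0.05, 1 gene (*Brpf3*) was lower in HT, against 1.93% of all genes tested, and 0 were higher, against 1.47%. None of the 38 had HT and WT values that did not overlap. Over all genes tested, the groups did not overlap in 0.347% with HT lower and in 0.282% with HT higher.

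Without HT 4, again 0 of 38 passed at an adjusted p under 0.05, with 0.0118% of all genes called and a smallest adjusted p of 0.481. A single gene (*Rcor2*) was lower at an unadjusted limma p under 0.05, where the background was 3.71%, and 0 were higher, where it was 4.69%. The 4 HT values lay below all 5 WT values for *Sin3b* and *Hdac3*, 2 of 38 genes, against a background of 1.21%, and for 0 genes above them, against 1.75%.

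The fold changes were small, and the intervals bounded them. The log2 fold change of HT against WT ran from -0.22 (*Brpf3*) to 0.10 (*Kat8* and *Hdac11*). Its median was -0.030 over the 38 genes and -0.0074 over all genes tested, with 12 genes above 0 and 26 below it (68.4%, against 53.6% of all genes). The median size of the fold change regardless of sign was 0.048 for the acetylation genes and 0.061 for all genes. The 95% interval lay wholly within 0.2 of 0 on the log2 scale, a rise of 14.9% or a fall of 12.9%, for 14 genes, within 0.3 for 29 and within 0.5, a rise of 41.4% or a fall of 29.3%, for all 38. Without HT 4 these counts were 19, 33 and 38, and 17 genes were above 0 and 21 below it, with a median of -0.019 over the 38 and -0.00081 over all genes.

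**Figure D2:**
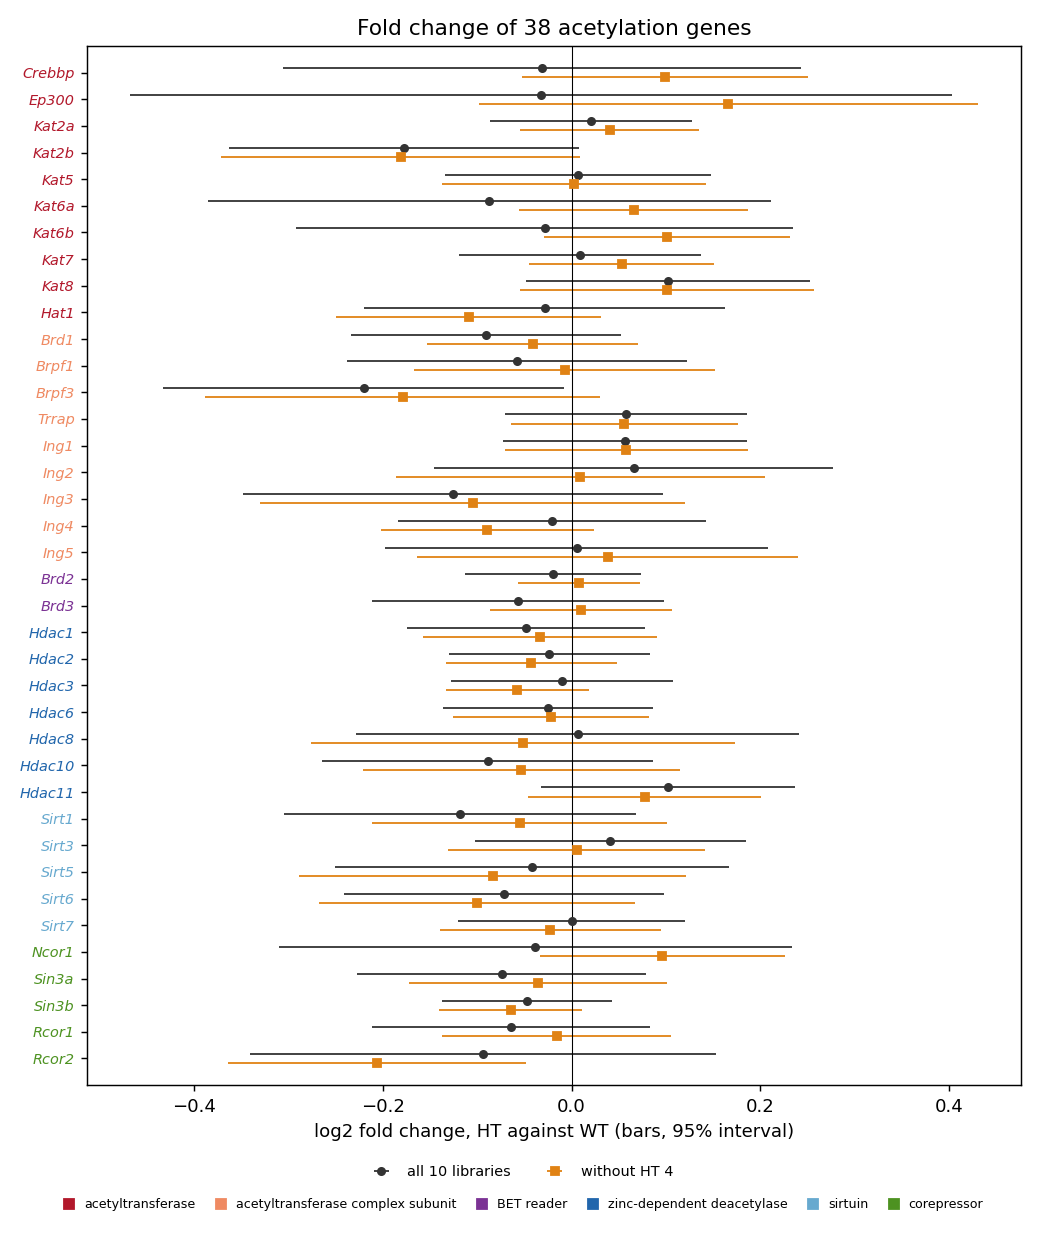
Log2 fold change of HT against WT for each gene with its 95% interval from limma, in all 10 libraries (circles) and without HT 4 (squares), with gene names coloured by role. The interval holds 0 for 37 of 38 genes in both fits, the exceptions being *Brpf3* with all libraries and *Rcor2* without HT 4.

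Among the 10 acetyltransferases of the list, 4 fold changes were above 0 and 6 below it, with a median of -0.028 (0.059 without HT 4, where 8 of 10 were above 0). Of all genes tested, 53.6% were below 0, and 50.4% without HT 4, the shares to set beside the counts of every role below. *Crebbp* and *Ep300* encode CBP and p300, the broad transcriptional coactivators that acetylate lysine 27 of histone H3 at enhancers. *Crebbp* read 3103, 2847, 2921, 1822 and 2589 in HT and 2716, 2286, 2924, 2863 and 2608 in WT (means 2656 ± 502 and 2679 ± 252.1), in replicate order. The value of HT 4 was the lowest of all, and 1 of the remaining HT values, that of HT 1, exceeded the highest of WT. Its log2 fold change was -0.031, SE 0.13 (exact permutation p = 0.857), and 0.10 without HT 4 (adjusted p = 0.754). *Ep300* had a like layout, with 3303, 2535, 2359, 1315 and 2378 in HT and 2391, 1995, 2328, 2843 and 2189 in WT (means 2378 ± 709 and 2349 ± 315). HT 1 held the highest value and HT 4, at 49.7% of the mean of the other HT mice, the lowest. The log2 fold change of *Ep300* was -0.033, SE 0.20 (exact permutation p = 0.913), with the widest interval of the 38 (-0.47 to 0.40), and 0.17 without HT 4 (adjusted p = 0.759).

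*Kat2b* (PCAF, chr17:53566861-53672720, plus strand, build GRCm38) was the acetyltransferase with the smallest p. It read 490.5, 504, 437, 487 and 495 in HT and 472, 504, 590.5, 641 and 535 in WT (means 483 ± 26.3 and 549 ± 67.8). The HT values lay close together, and all WT values but that of WT 1 were above them, WT 2 by less than 1 normalised count. The log2 fold change was -0.18, SE 0.086 (limma p = 0.0596, exact permutation p = 0.0873), and -0.18 without HT 4 (limma p = 0.06, adjusted p = 0.611). *Kat8*, which encodes MOF, the enzyme for lysine 16 of histone H4, read 549, 508, 561, 532 and 506 in HT and 500.0, 443, 508, 479.6 and 548 in WT (means 531 ± 24.6 and 496 ± 38.6). Only WT 5 reached into the upper part of the HT range, and WT 2 was the lowest. Its log2 fold change was 0.10, SE 0.069 (limma p = 0.165, exact permutation p = 0.111), and 0.10 without HT 4.

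*Kat6b*, a MYST-family enzyme mutated in developmental disorders with intellectual disability, read 2853, 2624, 2939, 1788 and 2798 in HT and 2760, 2342, 2870, 2709 and 2417 in WT (means 2600 ± 468 and 2620 ± 229). All HT values but that of HT 4 lay in the upper part of the WT range or just above it. Its log2 fold change was -0.028, SE 0.12, and 0.10 without HT 4 (limma p = 0.118, adjusted p = 0.693, exact permutation p = 0.222). Its paralog *Kat6a* averaged 3709 ± 780.5 in HT and 3865 ± 279 in WT, with a log2 fold change of -0.087 in all libraries and 0.066 without HT 4. The SAGA enzyme *Kat2a* averaged 2500 ± 99.7 in HT and 2465 ± 116 in WT (log2 fold change 0.021, and 0.04 without HT 4), *Kat5* (TIP60, of the NuA4 complex) 1342 ± 113 in HT and 1334 ± 77.3 in WT (0.0066 and 0.0029), and *Kat7* (HBO1, linked to replication origins) 2220 ± 166 in HT and 2202 ± 96.3 in WT (0.0093 and 0.053). *Hat1*, which acetylates newly made histone H4 before its deposition on chromatin, averaged 497 ± 67.6 in HT and 504 ± 30.6 in WT (log2 fold change -0.028, and -0.11 without HT 4).

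**Figure D3:**
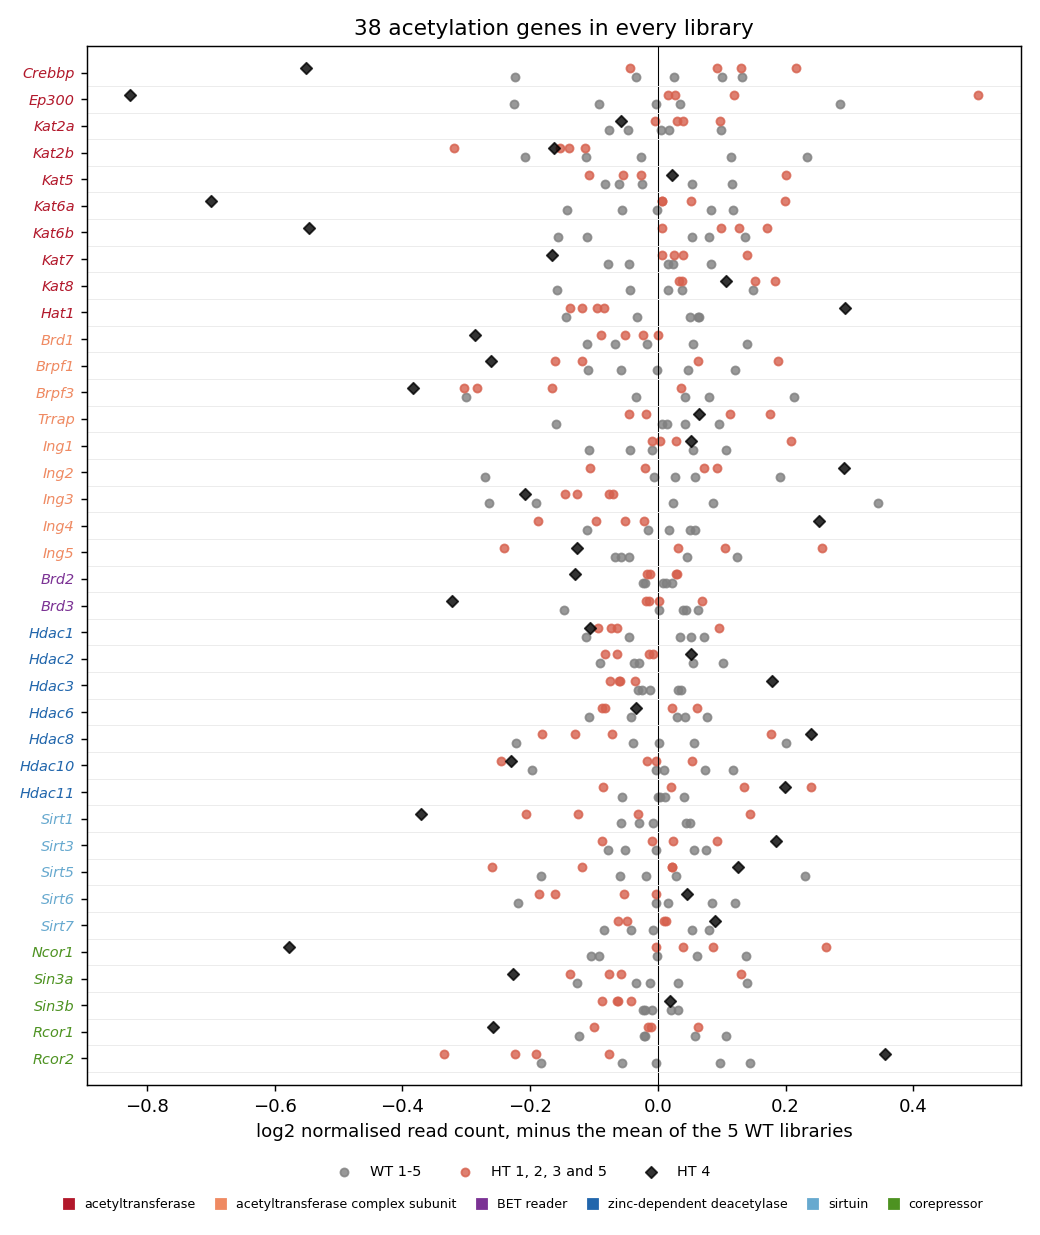
Value of each gene in every library, as log2 normalised read count minus the mean of the 5 WT libraries, with gene names coloured by role. Grey circles are WT, red circles HT 1, 2, 3 and 5, and black diamonds HT 4, which is the lowest of all 10 libraries in 14 genes and the highest in 8. The other points of the groups overlap in all genes but *Hdac3* and *Sin3b*, where HT 1, 2, 3 and 5 lie below every WT library.

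Genes classed as subunits that target or scaffold the acetyltransferases numbered 9, with 4 fold changes above 0 and 5 below (median -0.021, and -0.0070 without HT 4). The class includes the ING genes, whose proteins serve acetyltransferase or deacetylase complexes, so that its counts are not of writers alone. *Brpf3* (chr17:28801090-28839949, plus strand), a scaffold that directs MYST enzymes to histone H3, had the most negative fold change of the 38. It read 943, 1023, 1178, 879.9 and 931 in HT and 1121, 1182, 1331, 932 and 1214 in WT (means 991 ± 116 and 1156 ± 147). Of the HT mice, 3 lay near the lowest WT value (WT 4) or below it, while HT 2 and HT 3 lay inside the WT range. For *Brpf3* the log2 fold change was -0.22, SE 0.10 (limma p = 0.0434, adjusted p = 1.00, exact permutation p = 0.0873). It was -0.18 without HT 4 (limma p = 0.0879, adjusted p = 0.653, exact permutation p = 0.159).

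*Brd1* (also named BRPF2), a further member of that scaffold family, read 2041, 1919, 2009, 1674 and 1969 in HT and 1948, 1891, 2018, 2122 and 2248 in WT (means 1922 ± 146 and 2045 ± 142), with HT 4 lowest and WT 5 highest. Its log2 fold change was -0.09, SE 0.066 (limma p = 0.196, exact permutation p = 0.246), and -0.041 without HT 4. *Brpf1* averaged 915 ± 116 in HT and 948 ± 59.2 in WT (log2 fold change -0.058, and -0.007 without HT 4). *Trrap*, the large scaffold shared by the SAGA and NuA4 complexes, averaged 5699 ± 362 in HT and 5476 ± 352 in WT (0.058 and 0.056).

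The ING proteins read methylated lysine 4 of histone H3 and guide acetyltransferase or deacetylase complexes to it. *Ing3*, of the NuA4 complex, read 439.6, 423, 438, 399.7 and 417 in HT and 404, 384, 490.0, 469 and 586 in WT (means 423 ± 16.4 and 467 ± 80.0). The HT values were tightly grouped inside a wide WT range. *Ing3* had a log2 fold change of -0.13, SE 0.10 (limma p = 0.245, exact permutation p = 0.325), which was -0.10 without HT 4, -0.039 without WT 5 and -0.19 without WT 2. *Ing4*, of the HBO1 complex, read 1314, 1195, 1341, 1621 and 1272 in HT and 1347, 1417, 1377, 1260 and 1410 in WT (means 1349 ± 162 and 1362 ± 63.9). HT 4 held the highest value, and the log2 fold change was -0.021, SE 0.075 with it and -0.089 without it (limma p = 0.112, adjusted p = 0.689, exact permutation p = 0.0952). The remaining ING genes averaged 1239 ± 78.3 in HT and 1191 ± 68.9 in WT for *Ing1* (log2 fold change 0.057, and 0.058 without HT 4), 399 ± 42.2 in HT and 382 ± 43.1 in WT for *Ing2* (0.066 and 0.0093) and 382 ± 51.5 in HT and 378 ± 22.0 in WT for *Ing5* (0.0054 and 0.038).

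Neither BET reader of the list differed between the groups beyond the spread of the mice. *Brd2* averaged 7924 ± 350.2 in HT and 8028 ± 115 in WT with a log2 fold change of -0.02, SE 0.043 and a 95% interval of -0.11 to 0.073. *Brd3* averaged 4375 ± 434 in HT and 4537 ± 259 in WT, with a log2 fold change of -0.057, SE 0.072 and an interval of -0.21 to 0.10. Without HT 4, the fold changes were 0.0075 and 0.0097.

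Of the 7 zinc-dependent deacetylases of the list, 2 fold changes were above 0 and 5 below (median -0.023). Without HT 4 the median was -0.042, with 6 of 7 below 0. *Hdac1* and *Hdac2* are the catalytic subunits of the SIN3, NuRD and CoREST complexes. *Hdac1* read 1038, 1053, 1184, 1029 and 1060 in HT and 1134, 1073, 1024, 1165 and 1148 in WT (means 1073 ± 63.5 and 1109 ± 58.8), and *Hdac2* read 4948, 4887, 5123, 5366 and 5147 in HT and 4860, 5378, 5040, 5071 and 5554 in WT (means 5094 ± 188 and 5181 ± 279.8). The ranges of the groups overlapped almost wholly for both. The log2 fold changes were -0.048, SE 0.058 for *Hdac1* (exact permutation p = 0.413) and -0.023, SE 0.049 for *Hdac2* (exact permutation p = 0.579). Their 95% intervals ran from -0.17 to 0.078 and from -0.13 to 0.083, and without HT 4 the fold changes were -0.033 and -0.042.

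*Hdac3*, the deacetylase of the NCoR complex, read 3037, 3091, 3041, 3583 and 3007 in HT and 3141, 3247, 3100, 3112 and 3238 in WT (means 3152 ± 243 and 3168 ± 70.3). HT 4 was the highest of all libraries and the other 4 HT mice were below every WT mouse. For *Hdac3* the log2 fold change was -0.01, SE 0.054 with all libraries (exact permutation p = 0.889). It was -0.057 without HT 4 (95% interval -0.13 to 0.018, adjusted p = 0.71, exact permutation p = 0.0159). Full values of *Hdac3* are shown because its groups separated without HT 4, and so were chosen after they were seen.

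*Hdac11* was the deacetylase with the smallest p. It read 2027, 2183, 2541, 2470 and 2362 in HT and 2156, 2212, 2069, 2169 and 2152 in WT (means 2317 ± 210.5 and 2152 ± 52.1). The WT values lay close together, 3 HT values lay above them and HT 1 lay below. *Hdac11* had a log2 fold change of 0.10, SE 0.062 (limma p = 0.125, exact permutation p = 0.143), and 0.078 without HT 4. *Hdac10*, a polyamine deacetylase of the cytoplasm, read 663, 538, 631, 544 and 637 in HT and 557, 643, 672, 637 and 693 in WT (means 603 ± 57.3 and 640.4 ± 51.6), and its log2 fold change was -0.088, SE 0.081 (limma p = 0.295, exact permutation p = 0.238), and -0.053 without HT 4. *Hdac6*, the tubulin deacetylase, averaged 2909 ± 132 in HT and 2959 ± 150.3 in WT (log2 fold change -0.024, and -0.022 without HT 4), and the X-linked *Hdac8*, which acts on cohesin, averaged 250.4 ± 33.4 in HT and 249 ± 26.2 in WT (0.0064 and -0.052).

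The 5 sirtuins of the list had 2 fold changes above 0 and 3 below, with a median of -0.042. Without HT 4 the median was -0.055, with 4 of 5 below 0. *Sirt1*, the nuclear NAD+-dependent deacetylase of histones and transcription factors, read 628, 556, 521, 439.5 and 493 in HT and 557, 565, 589, 586 and 546 in WT (means 528 ± 70.7 and 569 ± 18.5). The HT values spanned the WT range on both sides, with HT 1 highest and HT 4 lowest. Its log2 fold change was -0.12, SE 0.086 (limma p = 0.195, exact permutation p = 0.246), and -0.055 without HT 4. The mitochondrial sirtuins averaged 569 ± 40.9 in HT and 552 ± 25.6 in WT for *Sirt3* (log2 fold change 0.041, and 0.0053 without HT 4) and 315 ± 32.0 in HT and 324 ± 34.7 in WT for *Sirt5* (-0.042 and -0.083). The nuclear *Sirt6* averaged 485 ± 33.4 in HT and 510.4 ± 44.8 in WT (-0.071 and -0.10) and the nucleolar *Sirt7* 796 ± 33.6 in HT and 796 ± 37.3 in WT (0.0002 and -0.022).

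All 5 corepressor genes of the list had a fold change below 0, with a median of -0.064 (-0.036 without HT 4, where 4 of 5 were below 0), and none passed the test. *Sin3b* read 2693, 2740, 2738, 2901 and 2780 in HT and 2843, 2904, 2824, 2926 and 2816 in WT (means 2770 ± 79.2 and 2863 ± 49.5). Only HT 4 among the HT mice lay inside the WT range, and the others were below every WT mouse by small margins. Its log2 fold change was -0.048, SE 0.042 (limma p = 0.274, exact permutation p = 0.0556, the smallest of the 38). Without HT 4 it was -0.064 (95% interval -0.14 to 0.011, adjusted p = 0.659, exact permutation p = 0.00794, the smallest that 4 against 5 libraries allow). *Sin3a* read 1501, 1318, 1247, 1172 and 1301 in HT and 1361, 1340, 1511, 1403 and 1257 in WT (means 1308 ± 122 and 1374 ± 93.0), with a log2 fold change of -0.074, SE 0.071 (limma p = 0.314, exact permutation p = 0.325), which was -0.036 without HT 4 and -0.12 without HT 1.

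*Rcor2* (chr19:7267325-7275225, plus strand) encodes a CoREST scaffold of neural progenitors that joins the demethylase LSD1 to HDAC1 and HDAC2. It read 725, 742, 802, 1083 and 671 in HT and 936, 746, 905, 845 and 815 in WT (means 805 ± 162 and 849 ± 75.0). HT 4 held the highest value, at 147% of the mean of the other HT mice, and of the other 4 only HT 3 lay inside the WT range. The log2 fold change was -0.094, SE 0.11 with all libraries (exact permutation p = 0.508). It was -0.21 without HT 4 (95% interval -0.36 to -0.048, limma p = 0.014, adjusted p = 0.481, exact permutation p = 0.0397). The dividing progenitor markers moved with it. Their summed level was 8092, 7496, 8201, 10180 and 6034 in HT 1 to HT 5 and 9748, 8032, 9747, 8772 and 7586 in WT 1 to WT 5. HT 4 was thus the highest and HT 5 the lowest library for *Rcor2* and for these markers alike, and 11 of 12 marker genes had a fold change below 0, with a median of -0.15, and -0.26 without HT 4. The part of progenitor number in the values of *Rcor2* was not tested.

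The other CoREST scaffold, *Rcor1*, averaged 1094 ± 90.5 in HT and 1142 ± 69.4 in WT (log2 fold change -0.064, and -0.016 without HT 4). *Ncor1*, the platform that activates HDAC3, averaged 6860 ± 1353 in HT and 6933 ± 498 in WT (log2 fold change -0.038, and 0.10 without HT 4).

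**Figure D4:**
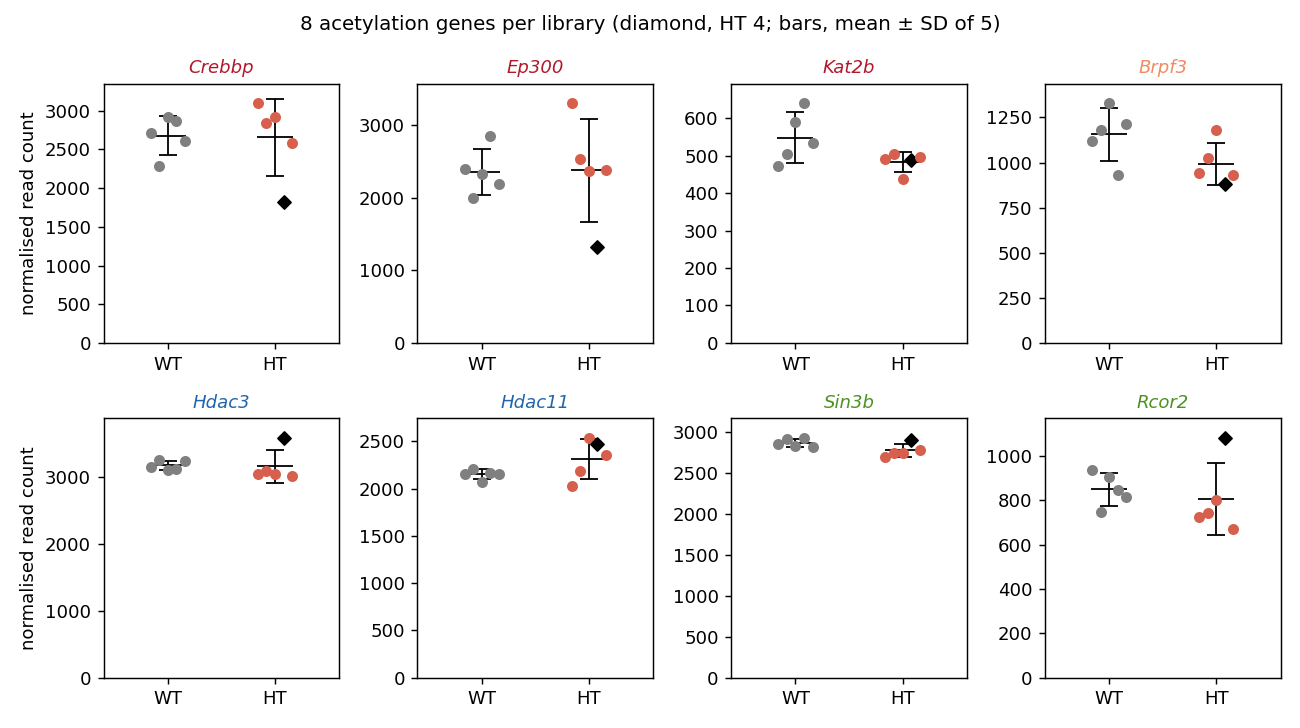
Normalised read count per library for 8 genes, with the axis from 0, grey circles for WT, red circles for HT, a black diamond for HT 4 and bars for mean ± SD of 5 mice. HT 4 is the lowest library for *Crebbp*, *Ep300* and *Brpf3* and the highest for *Hdac3* and *Rcor2*, and the groups overlap in every panel.

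The position of HT 4 varied with transcript length. HT 4 was the lowest library for 14 of the 38 genes (27.5% of all genes) and the highest for 8 (24.7%). Of the 7 acetylation genes with a longest coding transcript over 7000 bases, 6 were lowest in HT 4 (*Crebbp*, *Ep300*, *Kat6a*, *Kat6b*, *Brpf3* and *Ncor1*), as were 72.8% of the 1402 genes of that length. *Trrap*, the longest at 12479 bases, was the exception, with 5716 normalised counts in HT 4 against 5695 ± 418 in the other HT mice. Of the 16 acetylation genes of up to 3000 bases, none was lowest in HT 4 and 8 were highest, as were 39.5% of the 8326 genes of that length.

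Over the 38 genes, the deviation of HT 4 from the mean of the other 9 libraries ran from -0.90 (*Ep300*, 9566 bases) to 0.45 (*Rcor2*, 2823 bases) on the log2 scale. Its Spearman correlation with length was -0.796 across these genes and -0.494 across 17008 genes with a length, which share the library and are no replicates. In the other 9 libraries the same coefficient over the 38 genes lay between -0.312 and 0.480. Over all genes with a length it ran from -0.174 (WT 5) to 0.333 (HT 1) in these 9 libraries. Each of these was taken against a mean that included HT 4, so that the trend of HT 4 enters them with the opposite sign. The fold change of the 38 genes had a Spearman correlation with length of -0.366 in all libraries and 0.354 without HT 4. Fold changes without HT 4 are thus not free of a length trend. The sign of the fold change turned without HT 4 for 9 genes, which were *Crebbp*, *Ep300*, *Kat6a*, *Kat6b*, *Brd2*, *Brd3*, *Hdac8*, *Sirt7* and *Ncor1*. The length trend was also removed without HT 4, a setting chosen after the data were seen. There *Brd2* (-0.0030), *Brd3* (-0.0085) and *Sirt7* (0.0016) turned back to their first sign. The others kept the turned sign, with *Crebbp* at 0.026, *Ep300* at 0.10, *Kat6a* at 0.0075, *Kat6b* at 0.057, *Ncor1* at 0.039 and *Hdac8* at -0.030. The part of transcript length in the values of HT 4 or of the other libraries was not tested.

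**Figure D5:**
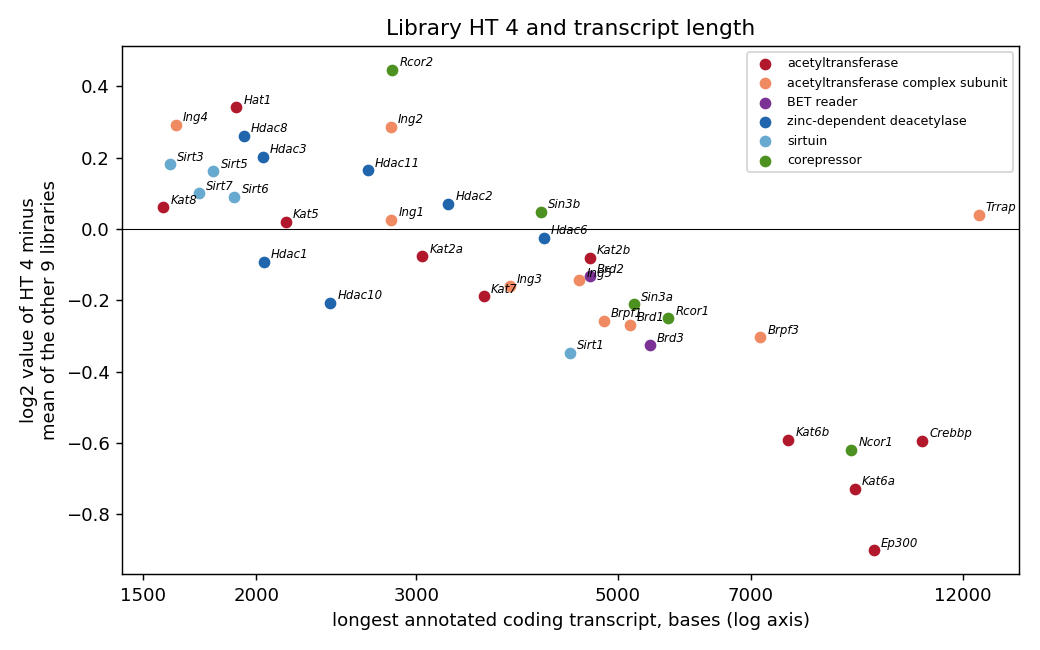
Log2 value of HT 4 minus the mean of the other 9 libraries for each of the 38 genes, against the length of the longest annotated coding transcript on a log axis, with colours for roles. *Crebbp*, *Ep300*, *Kat6a*, *Kat6b* and *Ncor1*, all over 7000 bases, lie lowest, genes of up to 3000 bases lie mostly above 0, and *Trrap*, the longest, lies near 0.

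Other genes of the same machinery were read from lists of 90 genes, of which *Mideas* was not in the table. Of the 89 tested, 21 had a fold change above 0 and 68 below it (median -0.037, and -0.0056 without HT 4), and 0 passed at an adjusted p under 0.05. Fold changes were below 0 for 23 of 36 other acetyltransferase complex genes, 15 of 16 other acetyl-lysine readers, 3 of 6 other deacetylases and 27 of 31 other corepressor subunits, against 53.6% of all genes. Without HT 4 these counts were 16, 9, 2 and 22, or 49 of 89 in all against 50.4% of all genes, and the medians of the lists moved from -0.011 to 0.013, from -0.070 to -0.0027, from -0.019 to 0.037 and from -0.055 to -0.035.

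At an unadjusted limma p under 0.05, 0 of the 89 were higher, against 1.47% of all genes, and 1 was lower, against 1.93%. The gene lower at that threshold was *Tbl1xr1*, an NCoR exchange factor, which averaged 1951 ± 316 in HT and 2371 ± 414 in WT (log2 fold change -0.28, SE 0.12, limma p = 0.0386, exact permutation p = 0.0873). WT 1 stood apart at 3102, with 2152, 2125, 2295 and 2179 in WT 2 to WT 5, all of them below HT 1 (2440). Without HT 4, the log2 fold change of *Tbl1xr1* was -0.24 and it no longer lay under that threshold. Next by p came *Baz1a*, a bromodomain subunit of chromatin remodelers, at 185 ± 51.9 in HT and 138 ± 20.5 in WT (0.39, SE 0.18, exact permutation p = 0.103, and 0.33 without HT 4), and *Sap30l*, of the SIN3 complex, at 345 ± 36.3 in HT and 305 ± 14.7 in WT (0.17, SE 0.084, exact permutation p = 0.0556, and 0.12 without HT 4). All 3 had overlapping groups.

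Other genes stood at that threshold without HT 4, where 4 of 89 were higher, against 4.69% of all genes, and 1 was lower, against 3.71%. Named after their values were seen, the higher ones were the class IIa deacetylase *Hdac4* (log2 fold change 0.18 without HT 4), the nuclear receptor coactivators *Ncoa3* (0.14) and *Ncoa2* (0.14), and the NuA4 subunit *Epc1* (0.11), and the lower one was the SIN3 subunit *Sap18* (-0.18). With HT 4 their fold changes were 0.037, -0.0043, -0.012, 0.054 and -0.11.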

How the data were processed

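Whole-brain poly-A mRNA of 10 mice (5 HT, 5 WT) was read as paired ends. Per the study's methods, the authors quantified reads with Salmon 1.1.0 on GRCm38 with GC-bias correction, imported gene estimates with tximport and divided them by DESeq2 1.30.1 size factors. The deposited signal, a normalised read count, is therefore not a raw count, and count models were not run. Whether strand was used is not given in the sources used here, and 17 of the 38 genes overlap an annotated gene on the opposite strand. Names, positions and lengths came from GENCODE M21 (18431 of 18444 genes matched).

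Values were analysed as log2(value + 1), which understates changes of low genes, with limma 3.58.1 (trend, robust, two-sided) in R 4.3.3, on 17020 genes with a mean of at least 10, adjusted by Benjamini-Hochberg over all of them at 0.05. Exact permutation tests used all 252 assignments of 5 and 5 libraries (126 of 4 and 5). p-values measure the spread between mice. On simulated data with 5 against 5 libraries, 93 of 100 genes changed 2-fold, 80 of 100 changed 1.5-fold and 14 of 16820 unchanged genes were called. The simulation gave every library independent noise with the spread of WT, held no library like HT 4 and changed no genes of low level. Its rates therefore do not give the power of the fit of all 10 libraries, where *Arid1b* itself was not called. The totals of 27.24 M to 29.03 M are sums after division by size factors, so that sequencing depth cannot be read from them.

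The members, roles and gene lists were chosen with earlier results of these data known. All members are given by means and fold change. Values per library are given for the 10 with the smallest limma p, the 3 next without HT 4, for *Crebbp*, *Ep300*, *Hdac1* and *Hdac2*, and for *Hdac3*, added after its values were seen. Of the other machinery lists, the 3 genes with the smallest p are named, with the 5 at p under 0.05 without HT 4. Alternatives were other pseudocounts (0.5, 10), filters, scalings, sample weights, a replicate block, removal of a length trend and leaving out each library. No library columns were left out.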

Additional observations from a re-analysis of the deposited data

Results flagged for a closer look

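Within groups of 5 mice, 8 of 76 groups (38 genes in HT and in WT) held a library whose gap to its neighbour took more than 0.71 of the group's range, where chance gives about 1 in 20, or 3.8 groups. The 76 groups share the same 10 libraries and are not independent, and the difference of these counts was not tested. All 8 were in HT, and 5 of them were HT 4. HT 4 was the highest HT library for *Hat1* (gap ratio 0.89) and *Hdac3* (0.854), and the lowest for *Brd3* (0.748), *Kat6a* (0.729) and *Kat6b* (0.726). In other libraries, HT 3 was far above the rest of HT for *Hdac1* (0.798) and below it for *Kat2b* (0.753), and HT 5 was above it for *Ing1* (0.735).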

How the results depend on the processing

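No acetylation gene passed an adjusted p under 0.05 under any of 21 alternatives, with the smallest adjusted p among the 38 between 0.481 and 1.00, and the sign of the fold change held in all of them for 20 genes. The count of genes at an unadjusted p under 0.05 was 1 and became 0 with the length trend removed, and ranged from 0 to 2 when 1 library was left out. It was 0 without HT 2, HT 5, WT 3 or WT 5, 2 (*Hdac11* and *Sirt1*) without HT 1, and 1 but another gene without HT 4 or with sample weights (*Rcor2*) and without WT 1 or WT 2 (*Kat2b*). With the length trend removed and HT 4 left out, an alternative chosen after seeing the data, it was 2 (*Kat2b* and *Rcor2*). The labels do not say that a shared number marks a shared litter or day. Correlations of same-numbered deviations ran from -0.104 to 0.0926. The HT mice 1, 2, 3 and 5 correlated best with the WT mouse of their own number, a hint from the data and not the design. All tests but the replicate block took the mice as unpaired. A replicate block gave 1 gene (*Brpf3*) and 558 genes in all, against 580 without it.

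With sample weights, which put HT 4 at 0.171 against 0.858 to 1.52 for the others, the fold changes turned positive for *Kat6b* (0.057), *Crebbp* (0.059) and *Ep300* (0.093). With the length trend removed and HT 4 left out they were 0.057, 0.026 and 0.10. Leaving out 1 library in turn, the ranges were -0.078 to 0.10 for *Kat6b*, -0.093 to 0.099 for *Crebbp*, -0.17 to 0.17 for *Ep300*, -0.089 to 0.021 for *Ing4*, -0.046 to 0.0021 for *Hdac2* and -0.055 to 0.013 for the sirtuin median. They were highest without HT 4 for the first 3, without HT 2 for *Ing4* and the sirtuins and without WT 5 for *Hdac2*. The cause was not tested. With 5 mice per group, changes within the intervals given could not be seen.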
